A study of Mus musculus with 16 samples.

Results

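Expression of 39 genes of glucose breakdown and of the response to low oxygen was followed in 16 mouse pancreatic cancer organoid lines. The genes were listed by symbol, grouped by their role, and all 39 were found among the 55487 genes of the tables. They comprised 4 genes of the oxygen-sensing machinery, 2 glucose transporters, 9 enzymes from hexokinase to triosephosphate isomerase, 2 enzymes that set fructose 2,6-bisphosphate, 5 enzymes of lower glycolysis, 6 genes that handle pyruvate and lactate, and 11 genes known to be induced in hypoxia. Of the 39, 38 passed the filter on low counts, and Slc2a3, a glucose transporter with 2 to 11 counts in each line, did not.

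The lines were organoids, epithelial cultures grown from tissue in a gel. They came from 6 KPC mice of the C57BL6/J strain, an animal model of pancreatic ductal adenocarcinoma in which cancer-causing alleles are switched on by Cre recombinase in the pancreas. The labels give the model but neither its alleles, the Cre driver nor the age of the animals, and both groups share the model, so there were no lines from healthy pancreas. The tumor group held 7 lines, with replicates 1 to 6 from mice 1 to 6 in that order and replicate 7 from mouse 6. The metastasis group held 9 lines: replicate 1 from the liver of mouse 1, replicate 9 from the peritoneum of mouse 2, replicates 2 and 3 from the peritoneum of mice 3 and 4, replicates 4 and 5 from diaphragm and lung of mouse 5, and replicates 6, 7 and 8 from liver, diaphragm and ovary of mouse 6. All lines were grown in Matrigel under 1 medium with EGF, FGF-10, gastrin, Noggin, R-spondin, nicotinamide, N-acetylcysteine and A83-01, an inhibitor of TGF-beta receptors. The oxygen tension of the cultures and the time since the last change of medium are not given in the labels.

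Total expected counts lay between 24624420 and 49965492 per line. In metastasis replicate 4 and tumor replicate 2, 72.7% and 29.95% of counts fell on CT010467.1, AY036118 and Lars2, 3 genes that collect ribosomal RNA reads. In the other 14 lines the share was at most 18.5%. The median share was 0.2724% in tumor and 12.31% in metastasis lines, so it differed between stages. The metastasis lines were not all rich in such reads, since replicates 6 and 7 had 0.01854% and 0.01902%. The 6 epithelial markers summed to 4176 to 6332 CPM (read counts relative to a library size scaled with TMM factors) for tumor and 4383 to 8960 CPM for metastasis lines. Markers of acinar cells, fibroblasts, immune cells and endothelium summed to at most 1.73, 0.775, 5.05 and 1.71 CPM in any line, and Cpa1, Lum, Adgre1 and Emcn were at 0 in every line. Of the lung list, Sftpd made up 99.9% of a sum that spanned 9.94 to 221.8 CPM over tumor and 0.0655 to 21.5 CPM over metastasis lines. The hepatocyte list, led by Apob, summed to 77.7 to 287.4 CPM over tumor and 4.04 to 397.3 CPM over metastasis lines, with 1 of 2 tested genes higher and 1 lower. The mesothelial list, led by Msln, spanned 164.4 to 1134 CPM and 308.4 to 756.1 CPM. Whether the make-up of the cultures moved with the values below was not tested, and in bulk RNA fewer cells of a type and less RNA per cell cannot be told apart.

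Glycolysis splits glucose into pyruvate. Hexokinases trap the sugar, phosphofructokinase commits it, aldolase cuts it in smaller sugars, and triosephosphate isomerase converts these into each other. The enzymes from glyceraldehyde-3-phosphate dehydrogenase to enolase carry them on toward pyruvate, with ATP made at the step of phosphoglycerate kinase. Lactate dehydrogenase turns pyruvate to lactate, which leaves or enters the cell through monocarboxylate transporters. When oxygen is short, the prolyl hydroxylases encoded by the Egln genes no longer mark HIF alpha subunits for destruction, and HIF dimers bind short DNA elements with a core of ACGTG or GCGTG and raise transcription of glycolytic enzymes and of genes such as Car9, Vegfa and Bnip3. Pancreatic ductal adenocarcinoma is known as a poorly perfused tumor.

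The core letters were looked up in RefSeq promoter windows of GRCm38.p6, which run from 250 bases before a gene's start to 50 after it. Windows were found for 35 of the 39 genes, 50 in all, and not for Epas1, Bnip3l, Ndrg1 and Slc2a3. Searched on both strands, ACGTG stood in 26 of the 50 windows (52%) against 19.6% of all 32851 windows and 20.9% of those of protein-coding genes. GCGTG stood in 29 windows (58%) against 32.4% and 38.5%. The palindrome CACGTG holds ACGTG on both strands and counts as 2 matches. The windows of the 39 genes had a median GC content of 61.5%, against 52.7% over all windows and 56.3% for protein-coding genes, and its part in these shares was not tested. A match is a run of letters, not a bound site.

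The 250 bases before the start are shown, 5′ to 3′ on the gene's strand, for the 4 genes that differed between stages and for Bnip3 and Ankrd37, which varied widely within both stages. Capitals mark ACGTG and GCGTG or their reverse complements. The positions are Car9 chr4:43506776-43507025 (plus strand), Pfkfb3 chr2:11553930-11554179 (minus strand), Ldhb chr6:142507958-142508207 (minus strand), Slc16a1 chr3:104638414-104638663 (plus strand), Bnip3 chr7:138909507-138909756 (minus strand), Ankrd37 chr8:45999851-46000100 (minus strand). For Pfkfb3 the window is the first of 2, and for Car9, Pfkfb3 and Bnip3 GENCODE M21 places the gene's start inside the window shown. For Ankrd37 it places the start upstream of the window, at position 46005707.
Car9: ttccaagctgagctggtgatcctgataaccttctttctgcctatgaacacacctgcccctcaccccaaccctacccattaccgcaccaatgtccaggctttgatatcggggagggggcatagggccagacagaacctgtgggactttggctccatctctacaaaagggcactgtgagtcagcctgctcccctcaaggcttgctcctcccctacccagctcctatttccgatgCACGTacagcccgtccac
Pfkfb3: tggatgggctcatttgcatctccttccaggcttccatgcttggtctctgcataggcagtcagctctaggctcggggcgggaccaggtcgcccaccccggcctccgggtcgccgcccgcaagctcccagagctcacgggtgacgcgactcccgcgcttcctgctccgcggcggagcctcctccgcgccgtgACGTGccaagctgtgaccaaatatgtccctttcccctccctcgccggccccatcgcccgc
Ldhb: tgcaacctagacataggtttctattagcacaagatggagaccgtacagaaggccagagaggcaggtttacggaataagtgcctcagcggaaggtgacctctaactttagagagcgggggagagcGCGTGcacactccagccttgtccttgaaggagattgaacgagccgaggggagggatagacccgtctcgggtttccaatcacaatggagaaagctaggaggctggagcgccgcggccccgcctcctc
Slc16a1: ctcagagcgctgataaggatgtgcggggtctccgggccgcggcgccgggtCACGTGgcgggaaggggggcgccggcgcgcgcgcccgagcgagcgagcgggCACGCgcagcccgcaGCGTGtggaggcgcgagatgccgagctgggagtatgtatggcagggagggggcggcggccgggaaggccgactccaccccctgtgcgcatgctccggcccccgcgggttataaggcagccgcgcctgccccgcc
Bnip3: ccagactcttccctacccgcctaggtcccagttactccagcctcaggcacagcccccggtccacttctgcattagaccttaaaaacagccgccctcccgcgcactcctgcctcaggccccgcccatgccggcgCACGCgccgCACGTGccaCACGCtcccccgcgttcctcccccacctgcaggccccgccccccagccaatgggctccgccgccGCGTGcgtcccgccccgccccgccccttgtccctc
Ankrd37: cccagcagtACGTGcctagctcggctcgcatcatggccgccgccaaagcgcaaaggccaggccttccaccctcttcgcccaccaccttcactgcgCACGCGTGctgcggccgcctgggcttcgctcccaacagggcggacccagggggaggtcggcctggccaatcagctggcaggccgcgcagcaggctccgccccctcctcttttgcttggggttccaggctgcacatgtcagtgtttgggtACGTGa
In these stretches Car9 and Pfkfb3 have a single ACGTG match each and Ldhb a single GCGTG. Bnip3 and Ankrd37 carry 2 ACGTG and 3 and 2 GCGTG matches, and Slc16a1 has 2 matches of each kind. The second Pfkfb3 window, not shown, also holds 2 of each. Other hypoxia-responsive members varied: whole windows hold 1 ACGTG and 0 GCGTG for Egln3, 0 and 2 for Adm, 2 and 0 for Slc16a3, and 1 and 2 for P4ha1. The genes shown are examples, and match numbers were not compared between sets of genes.

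The comparison of stages asked which of these genes have another level in the metastases than in the primary tumor when each animal is compared with itself. Car9, which encodes a carbonic anhydrase on the cell surface, Pfkfb3, which makes the activator of phosphofructokinase, and Ldhb, the heart-type subunit of lactate dehydrogenase, fell in metastasis lines. Slc16a1, which encodes the lactate and pyruvate carrier MCT1, rose. In edgeR's quasi-likelihood test with the mouse as a block and Benjamini-Hochberg adjustment over 15573 genes, these 4 of 38 tested members passed an adjusted p of 0.05, 1 higher and 3 lower. That is 10.5% of the members, below the 16.5% of all tested genes that passed (6.59% higher, 9.92% lower). The median log2 fold change was -0.10 over the 38 members and -0.02 over all tested genes, with 17 members positive and 21 negative. Before adjustment 10 members had a p under 0.05, while 33.6% of all tested genes did.

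**Figure D1:**
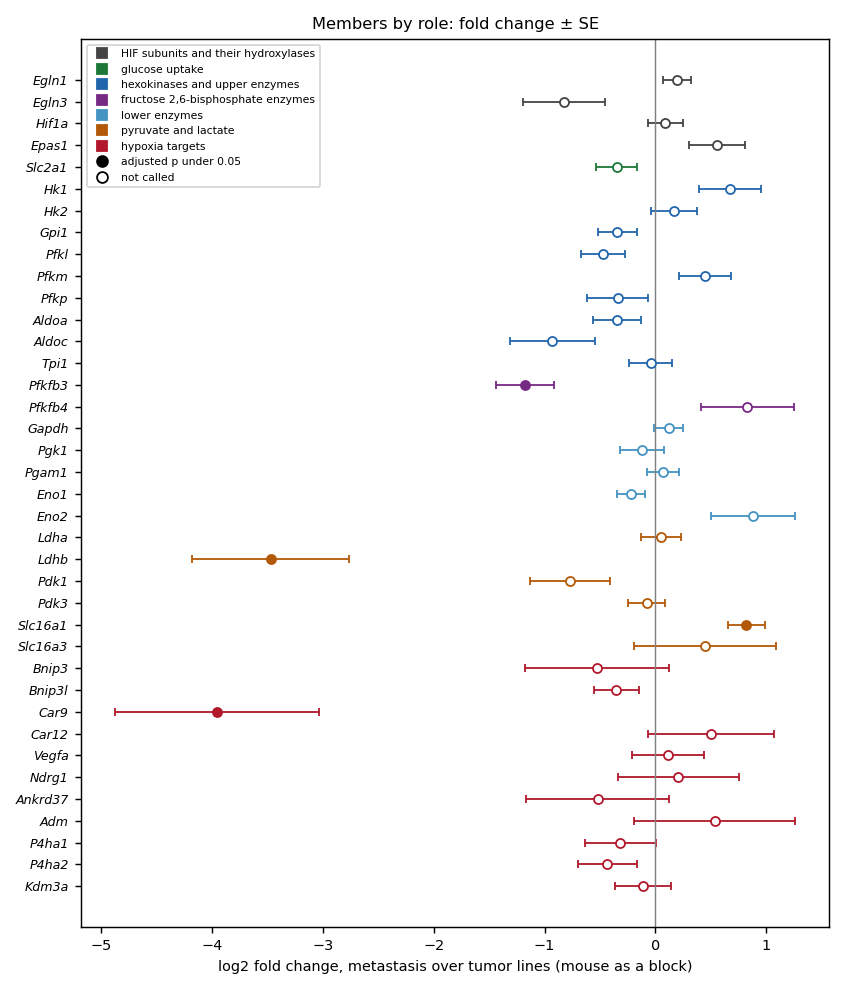
Log2 fold change of metastasis over tumor lines for the 38 tested members, ordered by role, with bars of 1 SE from the fit with mouse as a block. Filled points passed an adjusted p of 0.05: Car9, Ldhb and Pfkfb3 lie left of 0 and Slc16a1 right of it, while the other 34 are open.

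No member separated the stages: the ranges of tumor and metastasis lines overlapped for all 38, and 1.12% of all tested genes had ranges that did not. Within animals, 8 members had the same sign in 6 of 6 mice, 2 higher and 6 lower, against 25.8% of all tested genes. Leaving out tumor replicate 6 raised the count of called members to 9, adding Hk1, Pfkm, Pfkfb4, Eno2 and Epas1, all higher in metastasis lines. In that setting 24.7% of all 15802 tested genes passed. With the share of ribosomal RNA reads as a covariate 2 members passed, Car9 and Slc16a1 beside 5.34% of all genes when it was read from Gm42418, Gm26917 and AY036118, and Ldhb and Slc16a1 beside 5.14% when read from CT010467.1, AY036118 and Lars2. The mouse term takes out the level of each animal. The p values thus reflect how lines vary around that level and the stage difference, and not how the 6 mice differ in level. Lines of 1 mouse share an animal but entered the fit as separate lines.

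Among the genes of oxygen sensing, 0 of 4 passed in either direction by edgeR or by DESeq2, and Egln3 and Epas1 had unadjusted p values under 0.05. Hif1a, the alpha subunit of HIF-1, had 116.3 CPM in the lowest, 156.3 in the median and 189.9 in the highest tumor line, and 105, 157 and 264.9 CPM in the metastasis lines. The metastasis range enclosed the tumor range, and the log2 fold change was 0.09 (SE 0.16, adjusted p = 0.734 by edgeR), with the other sign in 4 of 36 alternatives. Epas1, the alpha subunit of HIF-2, had means of 8.36 ± 1.96 CPM (tumor lines, SD, n = 7) and 13.01 ± 5.36 CPM (metastasis lines, SD, n = 9). Its log2 fold change of 0.56 (SE 0.25, adjusted p = 0.146 by edgeR) was past the threshold without tumor replicate 6 and without mouse 6. HIF proteins are known to be set mainly by their stability, which RNA does not measure.

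Egln1, the main prolyl hydroxylase of HIF, had means of 35.4 ± 5.33 CPM (tumor lines, SD, n = 7) and 42.3 ± 13.1 CPM (metastasis lines, SD, n = 9), a log2 difference of 0.20 (SE 0.13, adjusted p = 0.311 by edgeR). Its highest values were 71.3 CPM in metastasis replicate 3 and 54.5 CPM in metastasis replicate 4. Egln3, a hydroxylase that is itself induced by HIF, ran from 62.8 through 110.3 to 234.1 CPM in tumor lines and from 23.0 through 87.5 to 162.8 CPM in metastasis lines. It was lower in 5 of 6 mice, and mouse 4 had a log2 difference of 0.02. The fitted difference was -0.83 (SE 0.37, adjusted p = 0.14 by edgeR).

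Of the glucose transporters, Slc2a1, which encodes GLUT1 and is the usual carrier in tumor cells, had 118 CPM in the lowest, 130.8 in the median and 213.6 in the highest tumor line. In metastasis lines the same values were 48.7, 126.5 and 193.6 CPM. The lowest was the peritoneal line of mouse 2, and without it the metastasis lines began at 95.3 CPM. The log2 fold change was -0.35 (SE 0.19, adjusted p = 0.209 by edgeR), and Slc2a1 passed in 0 of 36 alternatives. Slc2a3 had means of 0.113 ± 0.0572 CPM (tumor lines, SD, n = 7) and 0.236 ± 0.207 CPM (metastasis lines, SD, n = 9), at 2 to 11 counts per line.

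Of the 9 genes from hexokinase to triosephosphate isomerase, 0 passed by edgeR, and Hk1, Pfkl and Aldoc had unadjusted p values under 0.05, with 3 positive and 6 negative fold changes and a median of -0.34 on the log2 scale. Hk1, the broadly expressed hexokinase, had means of 64.1 ± 35.2 CPM (tumor lines, SD, n = 7) and 105.8 ± 37.9 CPM (metastasis lines, SD, n = 9), a log2 difference of 0.67 (SE 0.28, adjusted p = 0.118 by edgeR). Hk2, the isoform known from tumors and muscle, had means of 53 ± 16.96 CPM (tumor lines, SD, n = 7) and 59.4 ± 12.1 CPM (metastasis lines, SD, n = 9). The 3 phosphofructokinase genes did not share a sign: Pfkl, the liver type, had a log2 difference of -0.47 (SE 0.20), Pfkp, the platelet type, -0.34 (SE 0.27) and Pfkm, the muscle type, 0.45 (SE 0.23). Their adjusted p values by edgeR were 0.121, 0.41 and 0.196.

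Pfkl was lower in 5 of 6 mice, and without tumor replicate 7 it passed the threshold, as did 15.9% of all genes. Aldoc, the brain-type aldolase, had 16.6 CPM in the lowest, 47.2 in the median and 92.2 in the highest tumor line, and 7.33, 24.5 and 73.1 CPM in metastasis lines. It was lower in 6 of 6 mice, by 0.35 in mouse 6 to 2.68 in mouse 2 on the log2 scale. The fitted difference of -0.93 (SE 0.38) did not pass in edgeR (adjusted p = 0.111) but did in DESeq2, in 2 limma fits and with counts summed per mouse and stage. Gpi1, glucose-6-phosphate isomerase, was lower in 6 of 6 mice with a fitted log2 difference of -0.34 (SE 0.18), and Pfkm was higher in 6 of 6.

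The 2 members that set fructose 2,6-bisphosphate, the strongest activator of phosphofructokinase, had fitted differences of opposite sign, and only that of Pfkfb3 passed. Outside the members, Pfkfb2 had means of 40.5 ± 8.85 CPM (tumor lines, SD, n = 7) and 41.5 ± 7.34 CPM (metastasis lines, SD, n = 9). Pfkfb2, Pfkfb1 and Tigar had log2 differences of 0.03 (SE 0.13), 0.12 (SE 0.19) and 0.35 (SE 0.27) and were not called. Pfkfb3, the mainly synthesizing enzyme (ENSMUSG00000026773, chr2:11471433-11554077, minus strand), had 6.24 CPM in the lowest, 14.4 in the median and 40.8 in the highest tumor line. In metastasis lines it had 4.79, 6.04 and 13.7 CPM. It was lower in 6 of 6 mice, but by only 0.02 on the log2 scale in mouse 1, whose tumor line was the lowest of the 7, and by 2.27 in mouse 5, whose tumor line was the highest. The log2 fold change was -1.18 (SE 0.26, adjusted p = 0.0136 by edgeR). The adjusted p was 0.0533 without tumor replicate 5 and 0.0649 without the 2 libraries richest in ribosomal RNA reads.

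Pfkfb4 had means of 6.53 ± 2.42 CPM (tumor lines, SD, n = 7) and 17.9 ± 19.0 CPM (metastasis lines, SD, n = 9). Most of that spread came from the lung line of mouse 5, at 65.3 CPM, whereas the diaphragm line of the same mouse had 24.7 CPM and its tumor line 6.11 CPM. The fitted log2 difference was 0.83 (SE 0.42, adjusted p = 0.189 by edgeR), with 5 of 6 mice higher.

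**Figure D2:**
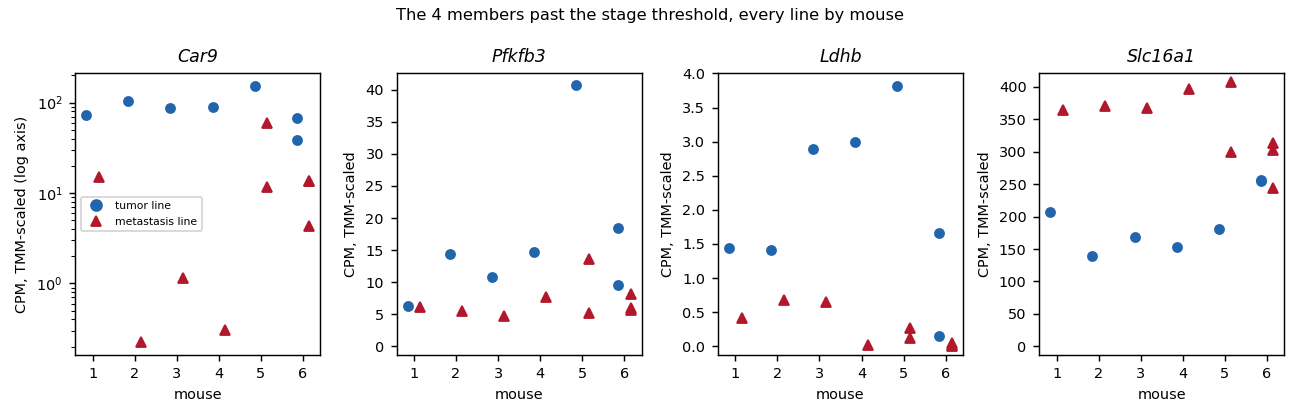
CPM of Car9 (log axis), Pfkfb3, Ldhb and Slc16a1 (linear axes) in every line, by mouse, with circles for tumor and triangles for metastasis lines. Car9 is lowest in the metastasis lines of mice 2, 3 and 4 (0.227 to 1.15 CPM), and Slc16a1 lies above its tumor line in every mouse except for the ovary line of mouse 6 (244.2 CPM).

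The 5 enzymes of lower glycolysis gave 0 calls by edgeR or by DESeq2 and a median log2 difference of 0.07, with Eno2 alone at an unadjusted p under 0.05. Gapdh, glyceraldehyde-3-phosphate dehydrogenase, had the narrowest log2 range of all members over the 16 lines, though not the smallest SD within a stage. It ran from 1242 CPM in tumor replicate 2 to 2261 CPM in tumor replicate 6, with a log2 difference between stages of 0.12 (SE 0.13). Pgk1, phosphoglycerate kinase, had means of 1008 ± 257 CPM (tumor lines, SD, n = 7) and 974.7 ± 304 CPM (metastasis lines, SD, n = 9). Pgam1, phosphoglycerate mutase, and Eno1, alpha-enolase, had log2 differences of 0.07 (SE 0.15) and -0.22 (SE 0.13), with adjusted p values of 0.78 and 0.243 by edgeR. Pgam1 took the other sign in 3 of 37 alternatives. Eno2, the neuronal enolase, was near the limit of detection, at 0.103 to 0.510 CPM over tumor and 0.130 to 0.904 CPM over metastasis lines.

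Among the genes that handle pyruvate and lactate, 1 of 6 rose, 1 fell and 4 were not called. Ldha, the muscle-type subunit of lactate dehydrogenase, had 913.5 CPM in the lowest, 1107 in the median and 1461 in the highest tumor line, and 672.2, 1259 and 1917 CPM in metastasis lines. The metastasis range enclosed the tumor range, and the log2 difference of 0.05 (SE 0.18, adjusted p = 0.87 by edgeR) took the other sign in 9 of 37 alternatives. Ldhb (ENSMUSG00000030246, chr6:142490249-142507957, minus strand) was far scarcer. It had 0.157 CPM in the lowest, 1.67 in the median and 3.81 in the highest tumor line, and 0, 0.129 and 0.680 CPM in metastasis lines.

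Every metastasis line was below its own animal's tumor lines for Ldhb, tumor replicate 6 included, and the 2 groups overlapped through that line alone. The log2 fold change was -3.47 (SE 0.71, adjusted p = 0.0097 by edgeR). It rests on few reads, since 6 of 9 metastasis lines had 12 counts or fewer, against 8 to 192 in tumor lines, and the adjusted p was 0.0555 without mouse 5.

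Slc16a1 (ENSMUSG00000032902, chr3:104638668-104658462, plus strand) had 138.6 CPM in the lowest, 180.9 in the median and 256.2 in the highest tumor line. In metastasis lines the values were 244.2, 364.2 and 407.4 CPM. Of 9 metastasis lines, 8 lay above every tumor line, and only the ovary line of mouse 6, at 244.2 CPM, lay below the 256.2 and 255.3 CPM of that animal's tumor lines. The log2 fold change was 0.82 (SE 0.17, adjusted p = 0.00933 by edgeR), a 1.77-fold rise. The difference within mice ran from 0.16 in mouse 6 to 1.42 in mouse 2. With limma on log2(TPM + 1), a setting that moved the median of all genes to -0.13, Slc16a1 had a log2 difference of 0.65 and did not pass (adjusted p = 0.271).

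Slc16a3, which encodes MCT4, the lactate exporter induced in hypoxia, spread more than it differed. It had 4.57 CPM in the lowest, 11.8 in the median and 102.9 in the highest tumor line and 4.67, 30.2 and 101.8 CPM in metastasis lines, with a fitted log2 difference of 0.44 (SE 0.64). Pdk1 and Pdk3, kinases that switch off pyruvate dehydrogenase, were not called with all lines. Pdk1 had means of 85.7 ± 36.4 CPM (tumor lines, SD, n = 7) and 56.1 ± 28.6 CPM (metastasis lines, SD, n = 9), with a log2 difference of -0.77 (SE 0.36, adjusted p = 0.158 by edgeR), and was lower in 5 of 6 mice. It passed without tumor replicate 7. Pdk3 had means of 16.6 ± 3.70 CPM (tumor lines, SD, n = 7) and 16.3 ± 6.23 CPM (metastasis lines, SD, n = 9), with a sign that changed in 4 of 36 alternatives.

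Of the 11 hypoxia targets, Car9 fell and the other 10 were not called, with 4 positive and 7 negative fold changes. Car9 (ENSMUSG00000028463, chr4:43506966-43513729, plus strand) encodes carbonic anhydrase 9, which turns CO2 into bicarbonate and protons outside the cell and is among the best known HIF-1 targets. It had 39 CPM in the lowest, 88.1 in the median and 152.3 in the highest tumor line. In metastasis lines it had 0.227, 11.6 and 59.3 CPM.

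Every metastasis line was below every tumor line for Car9 except metastasis replicate 4, whose 59.3 CPM lay above the 39 CPM of tumor replicate 6 but below the 152.3 CPM of its own animal's tumor line. The log2 fold change was -3.95 (SE 0.92, adjusted p = 0.0161 by edgeR), a 15.5-fold fall. Within mice the log2 difference was -2.28, -2.54 and -2.46 in mice 1, 5 and 6 and -8.56, -6.21 and -7.97 in mice 2, 3 and 4. Counts of Car9 were 9, 44 and 13 in the metastasis lines of mice 2, 3 and 4, against 2047, 4576 and 4626 in their tumor lines. With the share of the 3 genes that collect ribosomal RNA reads as a covariate, the adjusted p was 0.054 at a log2 fold change of -4.28.

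Car12, a related carbonic anhydrase, moved the other way in some animals. The metastasis lines of mice 1, 2 and 3 had 18.5, 17.8 and 42.7 CPM, above the 2.12 to 5.59 CPM of all 7 tumor lines. Those of mice 4 and 6 had 1.21 to 1.75 CPM, below all tumor lines. The fitted log2 difference was 0.50 (SE 0.57, adjusted p = 0.572 by edgeR).

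Vegfa, the growth factor of blood vessels, had 38.2 CPM in the lowest, 70.9 in the median and 153 in the highest tumor line and 40.6, 73.8 and 275.3 CPM in metastasis lines. The highest was metastasis replicate 4, and the next metastasis line had 103.7 CPM. The log2 difference was 0.11 (SE 0.33, adjusted p = 0.845 by edgeR), with the other sign in 6 of 36 alternatives. Bnip3, which directs mitochondria to autophagy, had 6.56 CPM in the lowest, 36.6 in the median and 86.05 in the highest tumor line and 3.05, 21.4 and 67.8 CPM in metastasis lines. Its fitted log2 difference was -0.52 (SE 0.65), and 3 mice were higher and 3 lower. Bnip3l, its paralog, was lower in 6 of 6 mice, with a fitted log2 difference of -0.35 (SE 0.20, adjusted p = 0.248 by edgeR).

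Adm, which encodes adrenomedullin, Ankrd37, an ankyrin repeat protein, and Ndrg1, a stress-induced gene, had fitted log2 differences of 0.53 (SE 0.73), -0.52 (SE 0.64) and 0.21 (SE 0.55). The collagen prolyl hydroxylases P4ha1 and P4ha2 and the histone demethylase Kdm3a had differences of -0.32 (SE 0.32), -0.43 (SE 0.27) and -0.11 (SE 0.25). These 6 genes had adjusted p values of 0.278 to 0.827 by edgeR. Lines of the same stage differed several-fold in each of the 6.

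**Figure D3:**
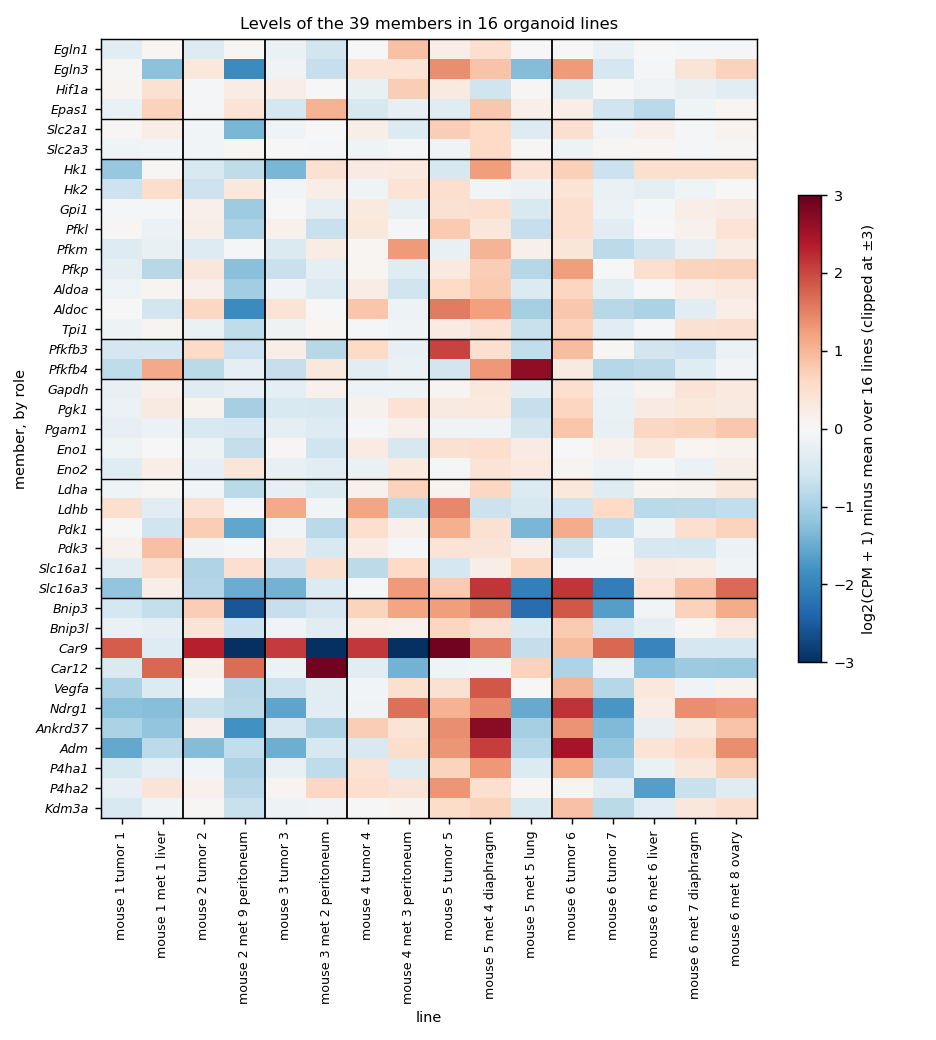
Log2(CPM + 1) of the 39 members, each minus its mean over the 16 lines and clipped at 3 on either side, with members by role and lines by mouse. Bnip3, Ndrg1, Ankrd37, Adm, Slc16a3 and Egln3 share a column pattern, high in tumor replicates 5 and 6 and metastasis replicate 4 and low in metastasis replicates 5 and 9 and tumor replicate 7, that does not follow stage. Car9 departs from that pattern in that its metastasis lines lie below the tumor lines of their own mouse.

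The spread within a stage was wide for some hypoxia targets and narrower for others. Across tumor lines the SD of log2 CPM was 2.36 for Adm, 1.49 for Ndrg1 and 1.36 for Ankrd37, but 0.43 for Car12, 0.49 for Bnip3l and 0.59 for Kdm3a and P4ha2. Among genes of glycolysis and lactate handling it was 1.53 for Slc16a3, 1.42 for Ldhb and 0.85 for Pfkfb3, and 0.21 for Eno1, 0.23 for Ldha and 0.29 for Gapdh. For Car9 the SD was 0.60 among tumor lines and 2.68 among metastasis lines, and for Car12 it was 0.43 and 1.89.

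Over the 16 lines, 11 members varied together. They were Bnip3, Bnip3l, Ndrg1, Ankrd37, Adm, Egln3, P4ha1, Kdm3a, Vegfa, Pdk1 and Slc16a3, a set put together after their values were seen, so the likeness within it is a description. Its 55 pairs had a median Spearman rho of 0.83 (0.52 to 0.96) over the 16 lines, which share animals. The median was 0.76 after the mean of each mouse was subtracted, 0.93 in the 7 tumor lines and 0.87 in the 9 metastasis lines. Without tumor replicate 6 and metastasis replicate 9, the lines at either end, it was 0.78, and without the 2 libraries richest in ribosomal RNA reads 0.82. The median over all 741 pairs of members was 0.34. Car9 had a median rho of 0.26 (-0.20 to 0.57) with the 11 over the 16 lines, which include its difference between stages. Within tumor lines its rho with them ran from -0.04 for Adm to 0.43 for Ankrd37. Within metastasis lines it ran from 0.10 for Ndrg1 to 0.78 for P4ha1.

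By their mean level relative to each gene's average, the 11 genes put tumor replicate 6 highest, by 1.60 on the log2 scale, followed by metastasis replicate 4 at 1.53 and tumor replicate 5 at 1.07. The lowest were metastasis replicate 9 at -1.41, tumor replicate 7 at -1.24 and metastasis replicate 5 at -1.14. Lines of a single animal thus lay at both ends. In mouse 6, tumor replicate 6 exceeded tumor replicate 7 by 31.9 times for Adm, 22.5 times for Slc16a3, 16.3 times for Ndrg1, 13.1 times for Bnip3 and 11.1 times for Ankrd37. For Slc16a1, Eno1 and Car9 the ratios of the same pair were 1.00, 0.923 and 0.580.

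In mouse 5, the diaphragm line exceeded the lung line by 21.8 times for Slc16a3, 19.7 times for Ankrd37, 17.3 times for Bnip3, 14.7 times for Adm and 5.13 times for Car9. Hif1a had ratios of 0.744 and 0.651 in these pairs, tumor replicate 6 over 7 and diaphragm over lung, and Epas1 had ratios of 1.83 and 1.63. The line with more of the targets thus had less Hif1a and more Epas1 RNA in both. Each pair compares 2 single libraries, and the diaphragm line had the library with 72.7% of its counts in genes that collect ribosomal RNA reads.

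**Figure D4:**
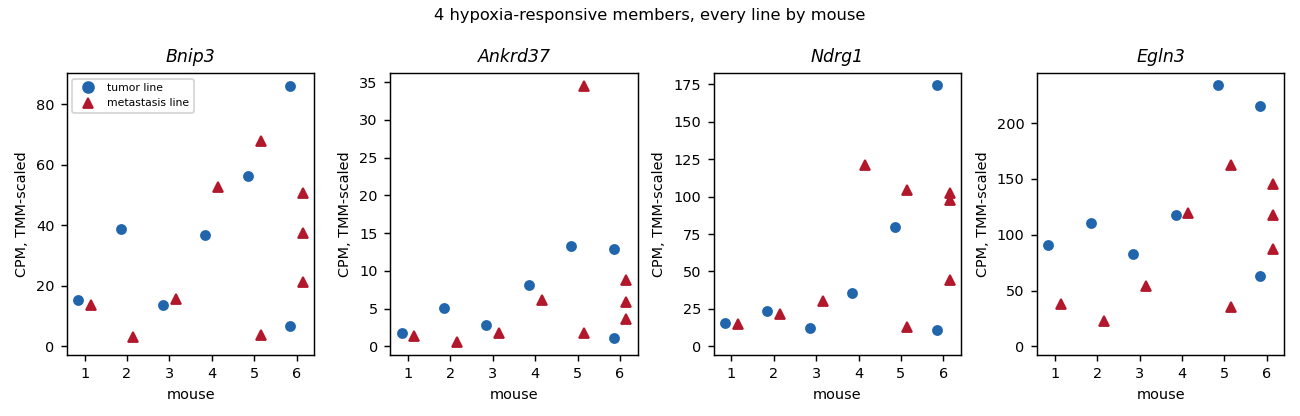
CPM of Bnip3, Ankrd37, Ndrg1 and Egln3 in every line, by mouse, on linear axes from 0, with circles for tumor and triangles for metastasis lines. The 2 tumor lines of mouse 6 lie far apart in each panel (86.05 and 6.56 CPM for Bnip3), as do the metastasis lines of mouse 5 (67.8 and 3.91 CPM).

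Members whose levels were most like those of Bnip3 over the 16 lines were Egln3, Ankrd37 and Kdm3a, with rho of 0.95, 0.94 and 0.93. Glycolytic enzymes ranked with Bnip3 as well, Ldha at 0.84, Pgk1 and Pfkl at 0.82 and Pfkp at 0.80, while Eno1 was at 0.26 and Hk2 at 0.26. With Car9, the most alike were Pfkfb3 at 0.78, Aldoc at 0.71 and Ldhb at 0.68. Within tumor lines these were 0.39, 0.57 and 0.61, and within metastasis lines 0.50, 0.45 and -0.22. Slc16a1 ran opposite to Car9, with rho of -0.89 over 16 lines and -0.94 after mouse means were subtracted. Within stages, between which both genes differ, it was -0.79 in the 7 tumor lines and -0.63 in the 9 metastasis lines.

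**Figure D5:**
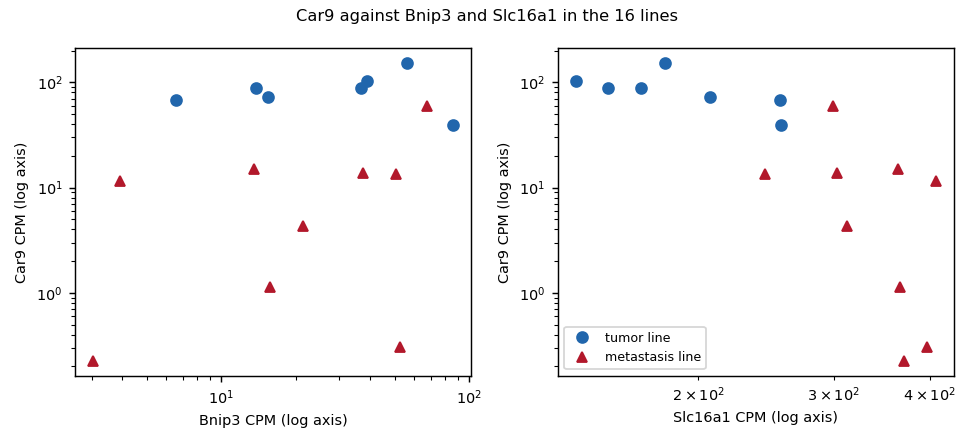
Car9 against Bnip3 (left) and Slc16a1 (right), in CPM on log axes, with 1 point per line, circles for tumor and triangles for metastasis lines. Car9 spans 0.227 to 152.3 CPM with little order along Bnip3 (rho 0.26) and falls as Slc16a1 rises (rho -0.89).

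Hif1a RNA had a rho of -0.45 with Bnip3 and -0.14 with Car9, and Epas1 of 0.05 and -0.36. Pfkfb4 had 0.10 with Bnip3 and 0.78 with Epas1. These values come from 16 lines that share animals and library preparation and carry no test.

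To compare genes, the deposited TPM, which allow for length, were ranked within each line. Gapdh ranked 1 or 2 of the 39 in every line, with 645 to 2225 TPM, and Ldha ranked 1 to 3, with 515.9 to 1512 TPM. Both lowest values were of metastasis replicate 4, with 72.7% of its counts in genes that collect ribosomal RNA reads. TPM are relative to all genes of a line, those included, so TPM ranges across lines are not ranges of CPM. In CPM that line had 2008 for Gapdh and 1806 for Ldha. Eno1, Pgk1, Aldoa, Tpi1, Pgam1 and Gpi1 took the ranks after them, with medians of 785.8, 735.4, 712.9, 520.1, 375.5 and 224.9 TPM. The order of Eno1, Pgk1 and Aldoa changed from line to line. Then came Bnip3l, Slc16a1 and Pfkl at medians of 81.3, 79.6 and 72.2 TPM, and Slc2a1 at 58.7 TPM.

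Car9 held ranks from 11 to 38 of 39, with 0.24 to 111.8 TPM, and no member moved further in rank. Among paralogs, Ldha had a median of 1038 TPM and Ldhb 0.89, Eno1 785.8 and Eno2 0.31, Hk1 30.6 and Hk2 12.6, and Slc2a1 58.7 and Slc2a3 0.08. Pfkl led the phosphofructokinases with 72.2 TPM, followed by Pfkp with 38.0 and Pfkm with 10.9. Hif1a, at a median of 47.5 TPM, was above Epas1, at 2.20 TPM, in every line.

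Near-identical copies took few reads. Over all lines, Pgam1-ps2 had 1.29% of the counts of Pgam1, Eno1b 0.565% of those of Eno1 and Bnip3l-ps 0.308% of those of Bnip3l, and 12 other listed copies had at most 0.0496% of their parent's counts. With the copies summed into the parent, Pgam1, Eno1 and Ldha were again not called.

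The sites of the metastases were compared in a single fit with a term for each of 5 sites. Car9 and Slc16a1 differed most from tumor lines in the peritoneal lines, and no member passed the test that the 5 sites are equal. In edgeR's test of equal sites 0 of 38 members passed after adjustment, as did 0% of all 15573 genes. Unadjusted p values under 0.05 were found for Car9, Slc16a1 and Eno1, 3 members, beside 1.71% of all genes, in a fit with 5 residual degrees of freedom. DESeq2's likelihood ratio test called Car9 and Eno1 among 44 genes, 0.3% of those tested.

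Against tumor lines, Car9 had a log2 difference of -7.59 (SE 0.61, adjusted p = 0.01 by edgeR) in peritoneal lines, and Slc16a1 one of 1.31 (SE 0.16, adjusted p = 0.0472 by edgeR). These were the only members called at any site, beside 1.1% of all genes at the peritoneum and 0% at each of the 4 other sites. Car9 differed by -1.61 (SE 0.53) at the diaphragm, -1.76 (SE 0.70) in the ovary, -2.99 (SE 0.58) in the liver and -3.85 (SE 0.84) in the lung, none of which passed. Slc16a1 differed by 0.05 (SE 0.23) in the ovary, 0.49 (SE 0.18) at the diaphragm, 0.55 (SE 0.18) in the liver and 1.05 (SE 0.25) in the lung. Eno1, Pfkl and Pfkfb3 had peritoneal differences of -0.64, -0.76 and -1.16, with adjusted p values of 0.0638, 0.119 and 0.103 by edgeR. Mice 2, 3 and 4 gave peritoneal lines and no other metastasis, so site and animal cannot be told apart, and lung and ovary had 1 line each. The peritoneal lines of mice 2, 3 and 4 had 16.61%, 18.53% and 14.02% of counts in the genes that collect ribosomal RNA reads. The tumor lines of these mice had 29.95%, 0.0595% and 0.5877%. The part of that share in the peritoneal differences was not tested.

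Differences between animals at the same stage were tested with the mouse terms. After adjustment 0 of 38 members passed in edgeR, beside 0.154% of all genes, and 6 had an unadjusted p under 0.05, beside 17.1% of all genes. DESeq2's likelihood ratio test called 4 of 38 members, Adm, Car12, Eno1 and Pgam1, and 12.8% of all genes. Pgam1 had the lowest adjusted p (0.139 by edgeR). It had 777.4 to 900.8 CPM in 4 of the 5 lines of mouse 6, 429.7 CPM in the other, tumor replicate 7, and 341.9 to 562.4 CPM in all lines of mice 1 to 5. Pgam1 passed without tumor replicate 7, as did 2.35% of all genes, and with no count filter, as did 1.76%.

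Eno1 followed, with an adjusted p of 0.237 by edgeR, and was highest in the 3 lines of mouse 5, at 1376 to 1647 CPM, together with the liver line of mouse 6 at 1438 CPM, and lowest in the metastasis lines of mice 2, 3 and 4, at 705.2 to 828.2 CPM. Pdk3 had 9.81 to 15.8 CPM in mouse 6 and 17.3 and 30.1 CPM in mouse 1. Car12 and Egln1, the next by p, had the values given above, and Adm had its 3 lowest values in the tumor lines of mice 1, 2 and 3, at 0.241 to 0.453 CPM.

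The rest of the pathway was read from 3 further lists. Of 40 other genes of glycolysis and pyruvate use, 31 were tested, of which 3 rose and 4 fell. That is 22.6%, beside 16.5% of all tested genes, with a median log2 fold change of -0.02. Pdp1, the phosphatase that switches pyruvate dehydrogenase on, rose, from a tumor mean of 11.2 ± 2.99 CPM (SD, n = 7) to a metastasis mean of 18.7 ± 5.24 CPM (SD, n = 9), a log2 difference of 0.70 (SE 0.15, adjusted p = 0.0114 by edgeR). Slc2a6, a glucose transporter of low abundance, rose by 2.15 (SE 0.47), and Slc2a12, another, fell by 1.65 (SE 0.38), both under 3 CPM in every line, and passed in 31 of 36 and 28 of 32 alternatives. Bsg, which encodes basigin, the chaperone that carries MCT1 and MCT4 to the cell surface, fell by 0.73 (SE 0.21, adjusted p = 0.033 by edgeR), but passed in 14 of 36 alternatives.

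Pdhb, a subunit of pyruvate dehydrogenase, fell by 0.32 (SE 0.08) and passed in 21 of 36 alternatives, and G6pc3, a glucose-6-phosphatase, fell by 0.65 (SE 0.18) and passed in 18 of 36.

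Of 18 other genes of the HIF machinery, 17 were tested, 0 rose and 2 fell. That is 11.8%, beside 16.5% of all tested genes. Arnt2, a partner that can dimerize with HIF alpha subunits, fell, from a tumor mean of 2.46 ± 1.60 CPM (SD, n = 7) to a metastasis mean of 0.128 ± 0.139 CPM (SD, n = 9), a log2 difference of -4.39 (SE 0.82, adjusted p = 0.00655 by edgeR). It was lower in 6 of 6 mice and passed in 34 of 34 alternatives, but rests on few reads in metastasis lines, at 0 to 0.443 CPM. Hif3a, a further HIF alpha gene, fell by 2.04 (SE 0.55) in 5 of 6 mice and passed in 19 of 34 alternatives. The median log2 fold change of the 17 was 0.08.

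Of 37 other HIF targets, 34 were tested, of which 3 rose and 7 fell. That is 29.4%, beside 16.5% of all tested genes, with a median log2 fold change of -0.33. Trf, transferrin, lay between 32.4 and 1069 CPM in tumor lines and between 0.0401 and 36.9 CPM in metastasis lines, and fell, with a log2 difference of -6.62 (SE 0.81, adjusted p = 0.00102 by edgeR). Cp, the copper oxidase ceruloplasmin, lay between 18.5 and 800.9 CPM and between 0.183 and 25.4 CPM, with a log2 fold change of -5.02 (SE 0.68). Stc1, the hormone stanniocalcin 1, fell by 4.27 (SE 0.69) on that scale. Ppp1r3c, which targets a phosphatase to glycogen, fell by 3.98 (SE 0.77) and passed in 35 of 36 alternatives. Loxl2, a collagen cross-linking oxidase, fell by 2.50 (SE 0.53), lower in 5 of 6 mice and higher by 1.60 in mouse 4. Mif, a cytokine, fell by 0.59 (SE 0.12), lower in 6 of 6. Loxl2 and Mif each passed in 32 of 36 alternatives and not without mouse 5. Loxl2 did not pass without the mouse term (adjusted p = 0.0854 by edgeR), with counts summed per mouse and stage or without the 2 libraries richest in ribosomal RNA reads. Mif did not pass with either share of ribosomal RNA reads as a covariate or in limma on log2(TPM + 1).

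Trf, Cp and Stc1 were lower in 6 of 6 mice and passed in 36 of 36 alternatives each. The other 4 called targets were named after their values were seen. Rora, a nuclear receptor, fell by 3.45 (SE 0.74), lower in 5 of 6 mice and higher by 1.64 in mouse 4. Flt1, a VEGF receptor, Angptl4, an inhibitor of lipoprotein lipase, and Stc2, stanniocalcin 2, rose by 3.45 (SE 1.01), 1.12 (SE 0.35) and 0.67 (SE 0.21). Their adjusted p values of 0.0384, 0.0473 and 0.0486 by edgeR lay close to the threshold. How these 4 genes fared in the alternatives is not given. Stc2 was higher by only 0.04 in mouse 4. Angptl4 was lower by 0.31 in mouse 6.

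Isoform shares were read from the deposited percentages for the 34 members with at least 20 counts in every line, as 60 transcripts with a mean share of at least 10%. Of the 60, 0 differed in the same direction in 6 of 6 mice. Car9 and Ldhb, both lower in metastasis lines, had fewer than 20 counts in some lines and were not among the 34. Slc16a1, Egln1 and Egln3 were each assigned to a single transcript at 100% in every line. Slc2a1 was divided between the coding Slc2a1-201, at 51.6% ± 1.82 (SD, n = 7) in tumor and 52.5% ± 2.78 (SD, n = 9) in metastasis lines, and Slc2a1-204, annotated as a target of nonsense-mediated decay, at 47.9% ± 1.96 (SD, n = 7) and 46.7% ± 2.65 (SD, n = 9).

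Hif1a-201, the main transcript of Hif1a, held 66.3% ± 3.83 (SD, n = 7) and 68.8% ± 5.25 (SD, n = 9), and Vegfa-202, the main transcript of Vegfa, 41.7% ± 2.80 (SD, n = 7) and 39.2% ± 3.01 (SD, n = 9). Pfkfb4-202, annotated as a target of nonsense-mediated decay, had a share of 3.94% ± 5.41 (SD, n = 7) in tumor and 16.8% ± 7.10 (SD, n = 9) in metastasis lines and was higher in 5 of 6 mice. Shares that RSEM divides among similar transcripts are estimates, and the isoform values carry no test.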

How the data were processed

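RNA was measured in 16 organoid lines, 7 from primary tumors and 9 from metastases of 6 mice. Per the submitters' processing notes, build GRCm38.p6 was used with FastQC 0.11.8, STAR 2.6.0c and RSEM 1.3.1. The deposited gene tables hold, per the file headers, expected counts, which are estimated and need not be whole, and TPM. The deposited isoform tables give, per the file headers, expected counts and the percent of a gene assigned to each transcript. RSEM divides reads among similar genes, so near-identical copies are uncertain. Whether strand was used in counting is not given in the sources used here.

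Expected counts deposited by the authors were rounded to whole numbers. Names came from GENCODE M21, which matched 55394 of 55487 identifiers, and the 93 others held at most 0.00356% of a library's counts. Aldoa is the identifier with more counts of 2 with that symbol. Groups, mice and sites were taken from the labels. The test was edgeR 4.0.16 (R 4.3.3), quasi-likelihood, with TMM, filterByExpr by stage, terms for mouse and stage, and Benjamini-Hochberg adjustment over 15573 genes at 0.05. An adjusted p is edgeR's unless another tool is named. Sites and mice had F tests of their terms. CPM use TMM-scaled library sizes. Log2 CPM for differences within mice and for Spearman rho has a prior count of 2, and the colour map of levels a pseudocount of 1.

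Tumor and metastasis lines are paired through the mouse label, and the mouse term is the block of the fit. Alternatives were no mouse term, RLE factors, 2 count filters, genes rich in ribosomal RNA reads left out or their share as a covariate, the 2 richest libraries left out, counts summed per mouse and stage, DESeq2 1.42.0, limma 3.58.1 with mouse as a random effect or on log2(TPM + 1), edgeR's robust option, and each line and mouse left out. CT010467.1, AY036118 and Lars2 were chosen for this after the data were seen, since they held more of the reads than Gm42418, Gm26917 and AY036118, which were listed at first.

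The 39 genes and all lists were chosen with earlier results of these data known. Members are described by role. Given in more detail are those past the threshold, the 6 lowest p of the stage test, the 5 lowest of the site and mouse tests, and Slc2a1, Ldha, Hif1a, Epas1, Egln1, Egln3 and Vegfa. Of each list up to 6 called genes with the lowest p are named. One gene counted as called in a list is not reported here. The test was checked on simulated counts with a single dispersion for all genes. Apart from the planted changes, these held no differences between animals or in the share of ribosomal RNA reads. The check thus does not cover such features of the lines. Counts limit precision for Ldhb, Eno2 and Slc2a3. They also limit it for Arnt2 and Slc2a12, with metastasis means of 0.128 and 0.120 CPM. For Adm they do so in tumor replicates 1, 2, 3 and 7, with 14, 9, 15 and 31 counts.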

Additional observations from a re-analysis of the deposited data

Results flagged for a closer look

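In 4 of 36 groups of lines examined, the highest or lowest line of a described member stood far from the others, and chance alone flags about 1 group in 20. On the log2 CPM scale, Pfkfb3 in metastasis replicate 4 was at 3.78, while the other 8 metastasis lines were at 2.28 to 3.03. Vegfa in the same line was at 8.11, above the 5.34 to 6.70 of the others. That line is the diaphragm line of mouse 5 and has the library with 72.7% of its counts in genes that collect ribosomal RNA reads. The part of that share in these values was not tested. Pgam1 in tumor replicate 6 was at 9.82, above the 8.52 to 8.94 of the other 6 tumor lines, and Ldhb in the same line was at -2.31, below their 0.54 to 1.95.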

How the results depend on the processing

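The count of 4 members called between stages stayed at 3 to 6 in most alternatives. It was 2 with the share of Gm42418, Gm26917 and AY036118 as a covariate (Car9 and Slc16a1), 2 with that of CT010467.1, AY036118 and Lars2 (Ldhb and Slc16a1), and 9 without tumor replicate 6. All genes called were 5.34%, 5.14% and 24.7% in these settings, against 16.5% in the reported fit. With each line or mouse left out it ran from 3 to 9. With no replicate block, that is without the mouse term that pairs the lines, it was 4, and the site count was 0. For sites, DESeq2 called 2 members, and leaving out a line or mouse gave 0 to 0. For mice the count was 4 with DESeq2, 1 with no count filter and 1 without tumor replicate 7, beside 12.8%, 1.76% and 2.35% of all genes, and leave-outs ran from 0 to 1. Car9 passed in 35 of 36 alternatives, Slc16a1 in 35 of 36, Ldhb in 33 of 35 and Pfkfb3 in 32 of 36, and these 4 reversed in none. The cause of the changes was not tested. Isoform counts stayed at 0 with shares from expected counts and at a minimum of 5%. In the 250 bases before the start alone, ACGTG stood in 46% of member windows, 16.6% of all and 17.8% of protein-coding windows, and GCGTG in 56%, 28.2% and 33.8%.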
